A study of Danio rerio with 8 samples.

Results

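The DnaJ co-chaperones, also called J-domain proteins or HSP40 proteins, were examined in heart cells of adult zebrafish with and without overexpression of Hmga1a, an AT-hook protein of chromatin. Members were taken by name alone, as every gene whose symbol is dnaja, dnajb or dnajc followed by a digit, which gave 42 of the 21171 genes in the count table. Of these, 3 are class A, 9 class B and 30 class C. There were 4 control libraries and 4 Hmga1a overexpression libraries of polyadenylated RNA, all from dissociated ventricles of fish with the cmlc2:dsred reporter, a red fluorescent protein under the control of a heart muscle promoter. Both groups are labelled cardiomyocytes and were taken 14 days after tamoxifen, the drug that induces the overexpression. The comparison asks what Hmga1a changes in an uninjured heart. The labels do not name the driver of the overexpression, say whether controls carry any part of it, or give the fish per library, so the spread behind each p-value is that of libraries and may be partly technical.

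DnaJ proteins bring unfolded clients to HSP70 and use their J domain to stimulate its ATPase, so that HSP70 closes on the client. Class A and class B members are mostly general folding helpers of the cytosol, and some of them are part of the heat-shock response. Class C members share little beyond the J domain and tie HSP70 to single tasks, such as protein import into mitochondria, entry into the endoplasmic reticulum (ER), vesicle release or ribosome assembly. In muscle, this machinery serves the folding and turnover of sarcomere proteins.

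Values are counts of transcripts, made from unique molecular identifiers, the short tags that mark single molecules. Libraries held 49589 to 352697 transcript counts in controls and 302058 to 572092 with overexpression. Control 2 was the shallowest, with 16018 counts outside the mitochondrial genome, so a single count there was worth 28.5 CPM (counts scaled by TMM to a common library size), and 0 counts allows up to 85.5 CPM by the rule of 3 counts. In the other libraries a count was worth 1.55 to 5.03 CPM. Values given in a row are those of libraries 1, 2, 3 and 4 of a group, in that order. These limits cover counting error only. Mitochondrial RNA, without its most abundant entry, was 33.0% to 45.1% of counts in controls and 22.7% to 27.2% with overexpression. The target gene hmga1a had a mean of 68.7 ± 38.6 CPM in controls and 111 ± 23.3 CPM with overexpression (SD, n = 4). Its groups overlapped and the log2 fold change, 0.46 ± 0.30 (SE), missed the threshold of edgeR's quasi-likelihood test (adjusted p = 0.179). The labels do not say whether the transgene's transcript would be counted under hmga1a, so this checks the overexpression label only in part. Cardiomyocyte markers summed to 10760 to 13378 CPM in controls and 21832 to 27193 CPM with overexpression. Markers of other heart cells were also present.

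DnaJ transcripts were sparse. Of the 42 members, 7 had no count in any library, namely dnaja3b, dnajb1a, dnajb11, dnajc5b, dnajc6, dnajc11b and dnajc14, and 11 were seen in control 2 at all. A total of 10 members passed the filter on low counts and were tested in a fit over 2498 genes. Of the 10, dnajb1b, dnaja1, dnajb6a and dnajc5ab fell with Hmga1a overexpression and dnajb2, dnajc5ga and dnajc19 rose (adjusted p under 0.05, edgeR), while dnaja2b, dnajc1 and dnajc8 did not pass. Over all genes tested, 30.3% rose and 29.3% fell, so 3 higher and 4 lower of 10 are shares near those of genes at large, and the counts alone say nothing particular about this family. The median log2 fold change was 0.50 over the 10 members and 0.01 over all genes tested. The filter asks for 28.7 unscaled CPM in 4 libraries, and dnajb2 and dnajc5ga reached it in the 4 overexpression libraries and in 0 controls, so these members could be tested only because they were high there. A single control reached it for dnajc8 and dnajc19, which also needed the overexpression libraries to be tested. These 4 members all had log2 fold changes above 0, so the median of the 10 cannot be read as a shift of the family. Among the 10, dnajb1b alone reached the filter in all 4 controls, so every other member needed at least 1 overexpression library.

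**Figure D1:**
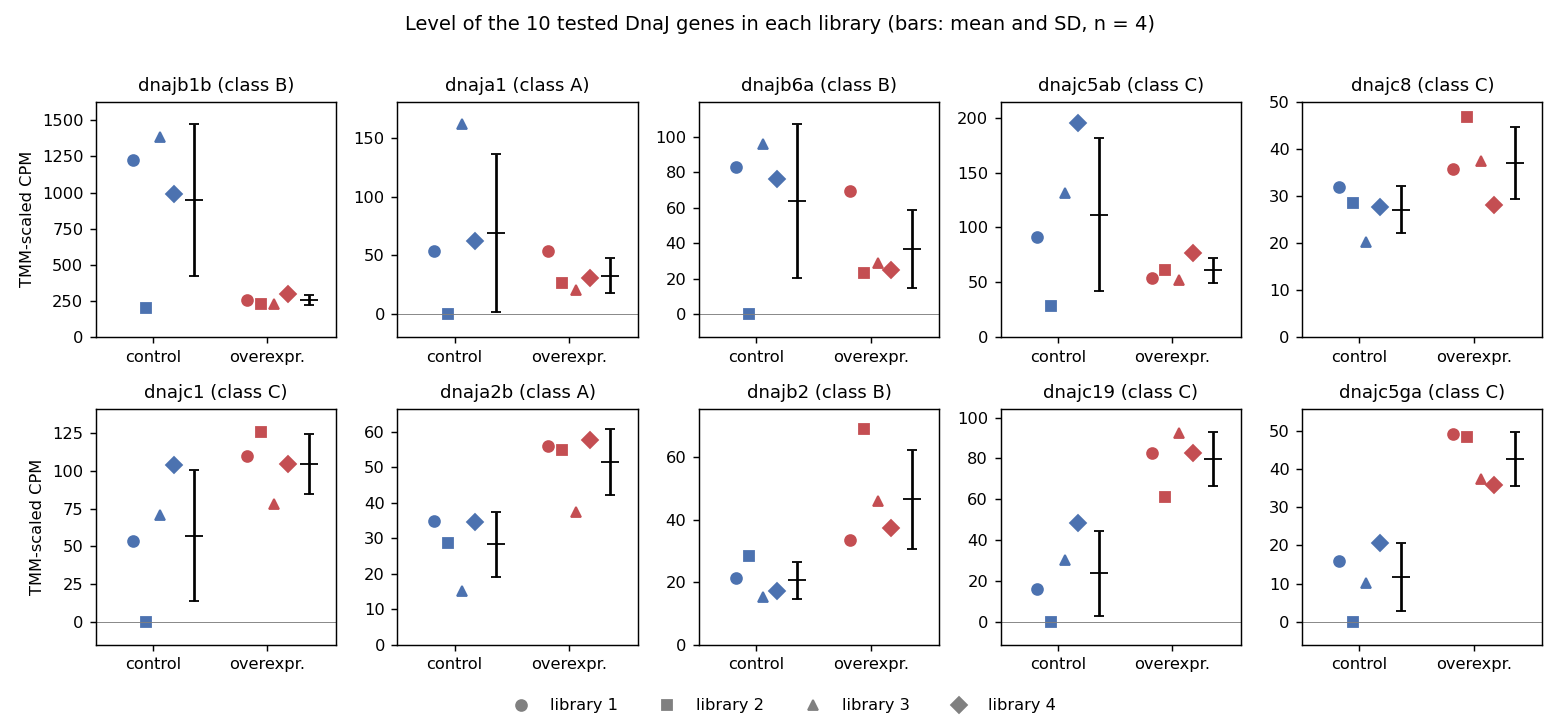
Level of each tested DnaJ gene in TMM-scaled CPM (vertical axes, starting at or just below 0), with controls in blue, overexpression libraries in red, a marker shape per library number and the mean with its SD (n = 4) in black. The first panel shows dnajb1b at 992 to 1384 CPM in 3 controls and at 227 to 300.3 CPM with overexpression, with control 2 at 199.7 CPM beside the overexpression libraries.

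Of the 10 tested members 5 act in the cytosol, and of these 3 fell and 1 rose (edgeR), beside 29.3% lower and 30.3% higher over all genes tested. This balance depends on the settings, as does that of all genes. With a lower filter, a minimum count of 3, 3 fell and 3 rose of 6, beside 19.3% and 21.5% of all genes. With libraries scaled by their totals alone 1 fell and 2 rose, beside 480 and 976 of all 2498 genes. With scaling on contractile genes 3 fell and 0 rose, beside 1377 and 128 of 2498. Compartments were assigned with the values in view. The gene dnajb1b (LL0000009050 in the count table) encodes the class B protein closest to the classical HSP40, which is induced by heat and works with HSP70 on unfolded and aggregated proteins. Its level was 1228, 199.7, 1384 and 992 CPM in controls and 255, 227, 229 and 300.3 CPM with overexpression. Controls 1, 3 and 4 lay far above all overexpression libraries, while control 2 lay below each of them. The value of control 2 rests on 7 identifiers, with an exact 95% Poisson interval of 80.3 to 411 CPM, so it was below the other controls by more than counting error. The mean was 951 ± 526 CPM in controls and 253 ± 34.1 CPM with overexpression (SD, n = 4). This is a log2 fold change of -2.05 ± 0.30 (SE, adjusted p = 9.3e-05, edgeR). Without control 2 the control mean was 1201 ± 197 CPM (SD, n = 3), the groups did not overlap, as in 60.2% of all genes tested, and the log2 fold change was -2.19 ± 0.14 (adjusted p = 7.7e-13, edgeR). The paralog dnajb1a was listed at 0 in all 8 libraries, and whether reads of the pair were split between them is not known.

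The class A gene dnaja1 encodes a cytosolic partner of HSP70 that is attached to membranes by a lipid anchor. It stood at 53.4, 0, 162 and 62.4 CPM in controls, from 20, 0, 32 and 18 identifiers. The overexpression libraries held 53.6, 26.5, 20.1 and 31.1 CPM, from 24, 17, 7 and 20 identifiers. Control 3 was the highest library, and overexpression 1 lay just above control 1, so the groups overlapped. The log2 fold change was -1.28 ± 0.42 (SE, adjusted p = 0.0097, edgeR), and without control 3 it was -0.69 and did not pass (adjusted p = 0.182, edgeR; 0.000175 to 0.182 over the 16 alternatives in which it was tested).

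The class B gene dnajb6a belongs to the DNAJB6 group, whose human member holds back protein aggregation and sits at the Z-disc of muscle, where its mutations cause a limb-girdle muscular dystrophy. Its level was 82.9, 0, 95.8 and 76.3 CPM in controls and 69.3, 23.4, 28.8 and 24.9 CPM with overexpression. Controls 1, 3 and 4 lay above all overexpression libraries, of which overexpression 1 came close to them. Without control 2 the groups did not overlap for 60.2% of all genes tested. The 0 counts of control 2 allow up to 85.5 CPM, so its place in the order is not settled. The log2 fold change was -1.12 ± 0.39 (SE, adjusted p = 0.0134, edgeR). It did not pass without overexpression 2 (-0.89, adjusted p = 0.0691) or without overexpression 4 (-0.91, adjusted p = 0.0550), and over all 17 alternatives adjusted p ran from 0.000179 to 0.144 (edgeR or DESeq2).

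Markers of other cell types were lower in the same group as dnajb1b, dnaja1, dnajb6a and the heat-shock genes that fell. Of the tested endothelial markers 4 of 4 fell, with a median of -1.99, and the 13 in the table summed to 285 to 545 CPM in controls and 69.1 to 122 CPM with overexpression, with cdh5 and aplnra at 0. Of the fibroblast markers 2 of 2 fell (8 in the table, 747 to 1514 against 134 to 190 CPM, col6a1 at 0). Of the epicardial markers 4 of 5 fell (9 in the table, 3236 to 3737 against 1292 to 1516 CPM, tbx18 at 0). Of the leukocyte markers 5 of 5 fell (16 in the table, 3420 to 6500 against 1426 to 1955 CPM, with coro1a, mfap4, grn1 and grn2 at 0). Of the smooth muscle and pericyte markers 2 of 2 rose, and the 5 erythrocyte markers in the table were at 0. Of 13 tested immediate early genes, which respond to stress and tissue handling, 9 fell, among them junbb, dusp1, junba and fosl2 (log2 fold changes from -2.40 to -1.93), and 1 rose (edgeR). Of the cardiomyocyte markers 7 of 10 rose and 3 fell. The cmlc2:dsred reporter's transcript was at 550.2 ± 34.9 CPM in controls and 2862 ± 713 CPM with overexpression (SD, n = 4), and rose by 2.36 ± 0.17 on the log2 scale (SE, adjusted p = 1.9e-12, edgeR). The part of these in the DnaJ results was not tested. In bulk libraries fewer cells of a type and less RNA per cell cannot be told apart.

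Other cytosolic members of classes A and B stood higher with overexpression. The gene dnajb2 encodes a co-chaperone that, in mammals, binds ubiquitin chains and hands clients to the proteasome. It was at 21.3, 28.5, 15.1 and 17.3 CPM in controls, from 8, 1, 3 and 5 identifiers, and at 33.5, 68.9, 46.1 and 37.4 CPM with overexpression, from 15, 44, 16 and 24. Every overexpression library lay above every control, by little in the case of overexpression 1. Groups did not overlap for 43.2% of all genes tested. The highest control, control 2, rests on 1 identifier, so the order against it is not settled. The gene reached the filter in 0 controls and could be tested only because it was high with overexpression. The log2 fold change was 1.29 ± 0.43 (SE, adjusted p = 0.0107, edgeR), and without overexpression 2 it was 1.07 and did not pass (adjusted p = 0.0565, edgeR; 0.00236 to 0.639 over its 16 alternatives). The class A gene dnaja2b, whose protein refolds clients with HSP70 in the cytosol, was at 34.7, 28.5, 15.1 and 34.6 CPM in controls and at 55.9, 54.7, 37.4 and 57.7 CPM with overexpression. Here too the groups did not overlap, but the log2 fold change, 0.81 ± 0.38 (SE), did not pass (adjusted p = 0.0618, edgeR). Without overexpression 3, the lowest of its group, it passed (0.97, adjusted p = 0.0371, edgeR; 0.0122 to 0.654 over its 16 alternatives). The class A pair stood in different proportion in the pooled groups: dnaja1 and dnaja2b had 70 and 27 identifiers over the 4 controls and 68 and 110 over the 4 overexpression libraries. By library they were 20 and 13, 0 and 1, 32 and 3, and 18 and 10 in controls. They were 24 and 25, 17 and 35, 7 and 13, and 20 and 37 with overexpression. The pooled control values lean on control 3, and control 2 holds too few identifiers to show a balance. The difference between the 2 genes was not tested.

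The make-up of the family's transcripts differed between the groups most in dnajb1b. Its share of all DnaJ transcript counts, which are not adjusted for transcript length, was 68.0%, 38.9%, 64.4% and 55.9% in controls and 23.3%, 21.7%, 23.4% and 28.5% with overexpression. Every control lay above every overexpression library. The share in control 2 rests on 18 identifiers and has an exact (Clopper-Pearson) 95% interval of 17.3% to 64.3%, while the intervals of the other controls span 50.6% to 70.5% and those of the overexpression libraries 18.4% to 31.7%. Class C held 19.7%, 50.0%, 19.2% and 32.6% in controls and 50.6% to 57.0% with overexpression. The summed level of all 42 members was 1804, 513, 2150 and 1775 CPM in controls and 981 to 1098 CPM with overexpression. Leaving out dnajb1b, it was 576, 314, 766 and 784 CPM in controls and 752 to 842 CPM with overexpression, ranges that overlap.

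**Figure D2:**
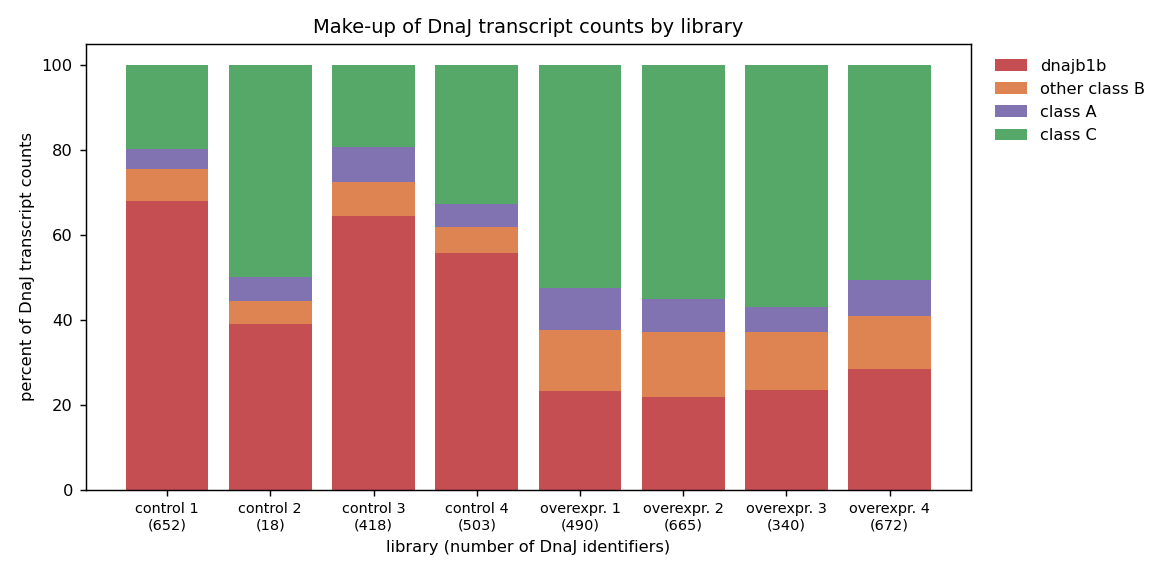
Percent of the DnaJ transcript counts of each library (vertical axis) that belong to dnajb1b, to the other class B genes, to class A and to class C; the number of DnaJ identifiers stands under each library. The dnajb1b part is 55.9% to 68.0% in controls 1, 3 and 4 and 21.7% to 28.5% in the overexpression libraries, and class C is the largest part in each overexpression library.

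The DnaJ members were set beside chaperone genes of the HSP70, HSP90, small heat-shock and chaperonin families. The heat-shock factors and the exchange and adaptor factors of HSP70 and HSP90 were included. Of 59 such genes in the table, 36 were tested; 15 rose, 10 fell and 11 did not pass (edgeR), with a median log2 fold change of 0.39 beside 0.01 over all genes. The counts stand beside 30.3% higher and 29.3% lower over all genes. Genes moved both ways among the HSP70, HSP90 and exchange factor lists. Of 6 tested HSP70 and HSP110 genes, 3 fell, namely the heat-inducible hsp70l (log2 fold change -2.12 ± 0.16 SE) and the HSP110 genes hsph1 (-2.50 ± 0.30) and hspa4a (-1.63 ± 0.16), which release nucleotide from HSP70, while hsc70, the heat-shock cognate gene, rose (1.66 ± 0.26). Of 4 HSP90 genes, hsp90aa1.2 (-2.78 ± 0.15), the ER form hsp90b1 (-1.05 ± 0.29) and hsp90ab1 (-0.44 ± 0.13) fell, and hsp90aa1.1, which folds myosin in zebrafish muscle, rose (0.45 ± 0.16). Of 11 tested exchange and adaptor factors, 4 fell, among them chordc1a (-2.04 ± 0.31) and the HSP90 activator ahsa1b (-1.82 ± 0.26), and 2 rose, unc45b, the myosin chaperone (1.09 ± 0.30), and fkbp5 (0.82 ± 0.22). All genes named with these values had adjusted p under 0.05 (edgeR). With library totals alone hsp90ab1 (-0.02) and hsp90b1 (-0.67) did not pass, and with libraries scaled on contractile genes hsp90aa1.1 fell (-0.58). Of the exchange and adaptor factors 4 rose and 2 fell with library totals alone, beside 976 and 480 of all 2498 genes. With libraries scaled on contractile genes 0 rose and 6 fell, beside 128 and 1377 of 2498.

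In the small heat-shock and chaperonin lists all genes that passed rose. With libraries scaled on contractile genes 3 chaperonin genes fell and 0 rose, and 1 small heat-shock gene fell and 2 rose. In that scaling 1377 of all 2498 genes tested fell and 128 rose. Of 6 small heat-shock genes 5 rose, among them hspb11 (1.99 ± 0.15 SE), hspb6 (1.85 ± 0.17), hspb7 (1.71 ± 0.33) and hspb12 (1.18 ± 0.16), and 0 fell. Of 7 chaperonin genes 5 rose, among them the ring subunit genes cct5 (1.32 ± 0.23), cct4 (0.89 ± 0.21) and tcp1 (0.66 ± 0.25) and the mitochondrial co-chaperonin gene hspe1 (0.89 ± 0.21), and 0 fell. The heat-shock factor gene hsf1, the activator of the heat-shock response, rose from 67.7 ± 28.3 to 144 ± 17.0 CPM (SD, n = 4; log2 fold change 0.89 ± 0.26 SE, adjusted p = 0.0045, edgeR), and stood at -0.14 with libraries scaled on contractile genes.

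The fall of dnajb1b (log2 fold change -2.05 ± 0.30 SE) was close in size to that of hsp70l (-2.12 ± 0.16). This size was not particular to hsp70l. Like falls were seen in herpud1 of the unfolded protein response list (-2.17), the immediate early gene fosl2 (-1.93) and the endothelial markers (median -1.99). Similar size alone therefore does not show that dnajb1b moved with hsp70l. The level of hsp70l was 7695, 5127, 7560 and 6193 CPM in controls and 1241, 1423, 1855 and 1671 CPM with overexpression. There were 0.160, 0.0389, 0.183 and 0.160 counts of dnajb1b per count of hsp70l in controls and 0.206, 0.159, 0.124 and 0.180 with overexpression. The ratio in controls 1, 3 and 4 lay within the range of the overexpression libraries, and control 2 was low. In control 2 hsp70l, though the lowest of the controls, stood far above the overexpression libraries, and dnajb1b did not. Other heat-shock genes that fell went either way in control 2. Lowest there among the controls were chordc1a, at 28.5 CPM, a single count, against 131 to 164 CPM in the other controls, and hspa4a, at 571 against 851 to 1083 CPM. So were hsp90aa1.2, at 4474 against 5146 to 6805 CPM, and hsp90ab1, at 2681 against 3058 to 3213 CPM. Highest there were hsph1, at 228 against 108 to 172 CPM, and ahsa1b, at 343 against 167 to 294 CPM. Both of these rest on few counts in control 2. The level of hsp90b1, 114 CPM, lay within the 101 to 139 CPM of the other controls. A correlation over the libraries was not computed, because the groups form separate clusters of 4.

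**Figure D3:**
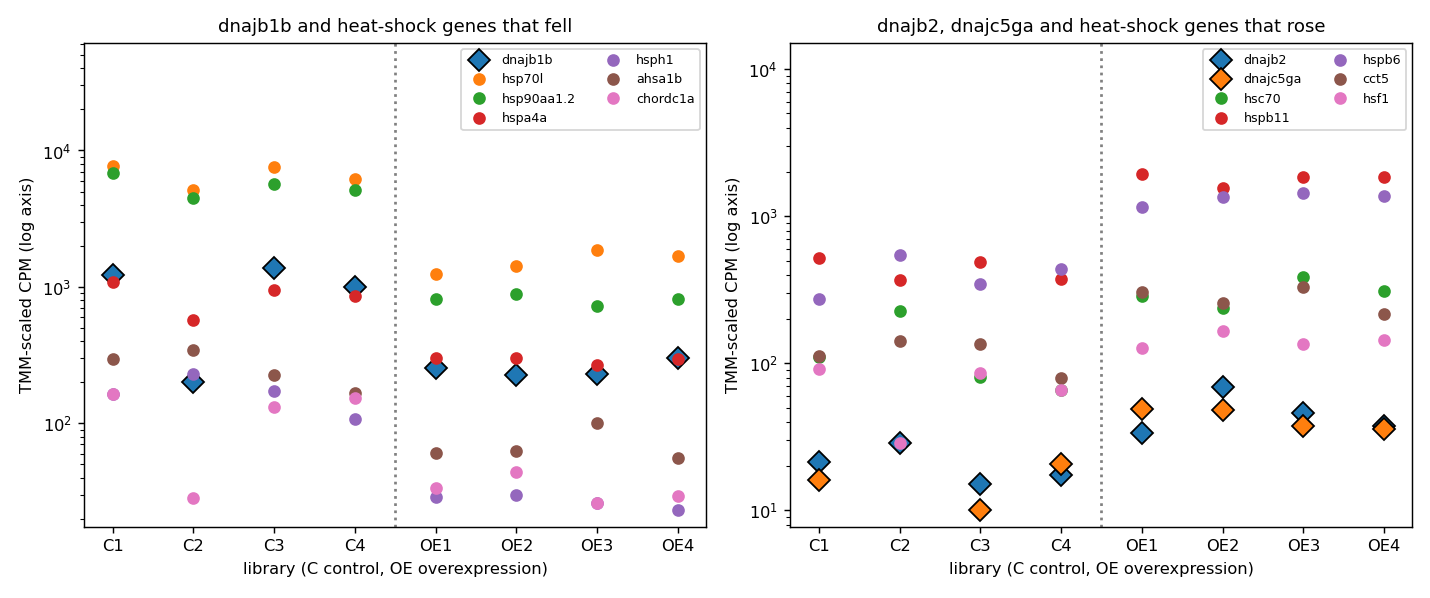
Level in TMM-scaled CPM (log axis) in each control (C1 to C4) and overexpression library (OE1 to OE4), with dnajb1b and heat-shock genes that fell on the left, and dnajb2, dnajc5ga and heat-shock genes that rose on the right; diamonds mark DnaJ genes and a level of 0 (dnajc5ga in control 2) is not drawn. The left panel shows dnajb1b at 992 to 1384 CPM in controls 1, 3 and 4 and at 227 to 300.3 CPM with overexpression, a drop about the size of that of hsp70l. In control 2 the genes part: dnajb1b, at 199.7 CPM, lies below all overexpression libraries, and hsp70l, at 5127 CPM, far above them.

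Of the class C members of mitochondria, the gene dnajc19 rose. It encodes the J protein of the import motor, which drives the pull of mitochondrial HSP70 on incoming proteins at the inner membrane, and its loss in humans causes dilated cardiomyopathy with ataxia. Its level was 16.0, 0, 30.2 and 48.5 CPM in controls, from 6, 0, 6 and 14 identifiers. It was 82.8, 61.0, 92.4 and 82.8 CPM with overexpression, from 37, 39, 32 and 53 identifiers. Every overexpression library lay above every control, as in the 43.2% of all genes tested whose groups did not overlap. The 0 counts of control 2 allow up to 85.5 CPM, so the order against that control is not settled. The log2 fold change was 1.43 ± 0.38 (SE, adjusted p = 0.0019, edgeR), in a gene that reached the filter in 1 control and needed the overexpression libraries to be tested. Of 7 mitochondrial members, 5 had counts, with 51 identifiers over the controls and 328 over the deeper overexpression libraries. Scaled for depth, their summed level was 46.9 ± 39.3 CPM in controls and 165 ± 32.9 CPM with overexpression (SD, n = 4). By library it was 31.98, 0, 65.44 and 89.998 CPM in controls and 134 to 205 CPM with overexpression. Control 2 held 0 identifiers of these members, which allows up to 85.5 CPM there. The control mean may therefore be too low and the difference between the groups too large.

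The other mitochondrial members were below the filter and were tested with a lower one, a minimum count of 3. There, over 4925 genes, 21.5% rose and 19.3% fell, and of 22 members tested 9 rose and 4 fell. The TMM scaling was computed anew on the 4925 genes. Each member tested at both filters stood higher here, such as dnaja1 at -1.09 beside -1.28 and dnajb1b at -1.84 beside -2.05. The median of all genes tested was 0.07 here and 0.01 in the main fit. Of the 22, 5 had at most 1 control above this filter. Others with fewer than 4 controls above it, such as dnajc11a and dnajc15, also needed overexpression libraries to be tested. The members that rose therefore cannot be read as an excess. The inner-membrane gene dnajc15, a relative of dnajc19 that in mammals also restrains respiratory complex I, had 5, 0, 4 and 6 identifiers in controls and 30, 31, 25 and 15 with overexpression, and rose (1.77 ± 0.48 SE, adjusted p = 0.0015, edgeR). The gene dnajc11a, of the complex that shapes the mitochondrial cristae, had 0, 0, 3 and 6 identifiers in controls and 11, 12, 12 and 17 with overexpression; it did not pass (1.46 ± 0.64, adjusted p = 0.0515, edgeR). The gene dnajc30b had 1 identifier over the controls and 10 over the overexpression libraries, and dnajc28 had 0 and 4. In the main fit 6 genes of the mitochondrial import motor and chaperones were tested, beside 30.3% higher and 29.3% lower over all genes. Of these timm23a, a channel subunit of the inner membrane (1.26 ± 0.30), and hspe1 rose and 4 did not pass (edgeR). With library totals alone 4 rose and 0 fell, beside 976 and 480 of all 2498 genes. With scaling on contractile genes 0 rose and 3 fell, beside 128 and 1377 of 2498, with timm23a at 0.21 and hspe1 at -0.15.

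**Figure D4:**
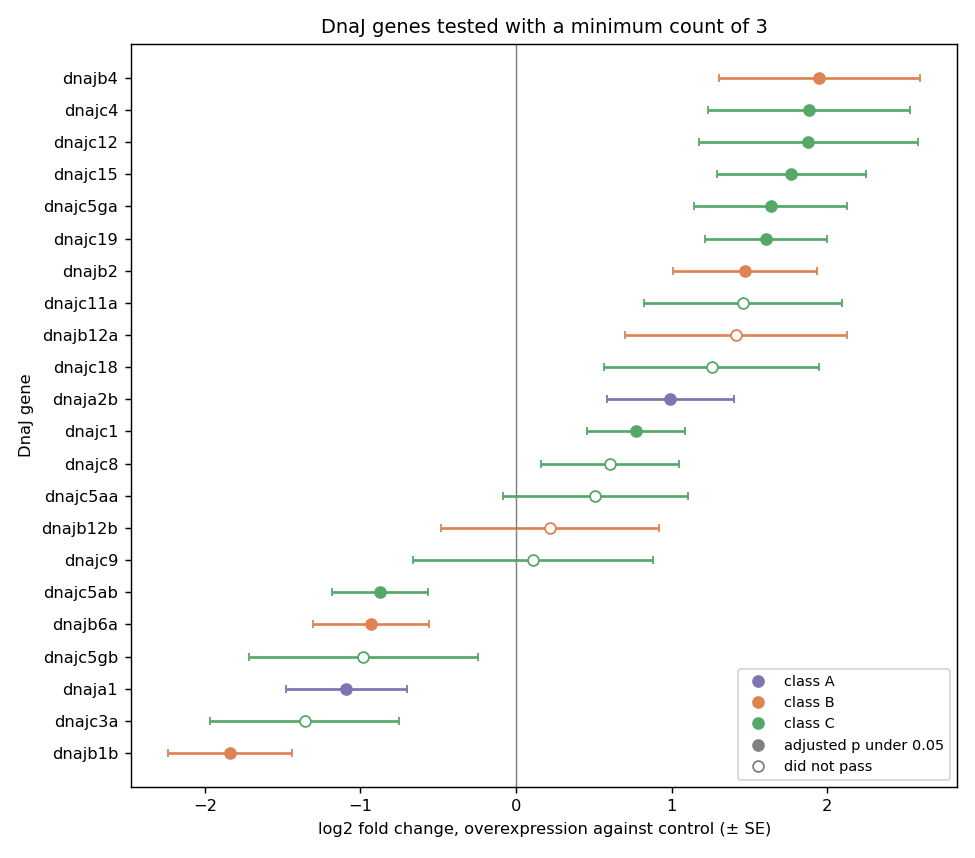
Log2 fold change of overexpression against control with its SE (horizontal axis) for the 22 DnaJ genes tested at a minimum count of 3, coloured by class; filled points passed edgeR's test (adjusted p under 0.05) and open points did not. The 9 members that rose stand at 0.77 to 1.95 and the 4 that fell at -0.87 to -1.84.

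Of 11 members of the ER, 9 had counts and 1, dnajc1, was tested. Its protein spans the ER membrane and binds the ER form of HSP70 close to the translocon. It was at 53.4, 0, 70.5 and 104 CPM in controls and at 109.8, 126, 77.9 and 105 CPM with overexpression, and its log2 fold change, 0.59 ± 0.31 (SE), did not pass (adjusted p = 0.105, edgeR). With the minimum count of 3 it was 0.77 ± 0.32 and passed (adjusted p = 0.0409, edgeR), in a fit where each member tested at both filters stood higher. Without control 4, the highest of the controls, it also passed (0.93, adjusted p = 0.0333, edgeR; 0.0142 to 0.427 over its 17 alternatives).

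The other 4 ER members tested at the lower filter did not pass. The lumenal gene dnajc3a, which is induced by ER stress in mammals, had 6, 1, 9 and 8 identifiers in controls and 2, 10, 3 and 5 with overexpression. Scaled for depth its groups did not overlap, with 16.0, 28.5, 45.3 and 27.7 CPM in controls and 4.46, 15.6, 8.63 and 7.76 CPM with overexpression (-1.36 ± 0.61 SE, adjusted p = 0.0576, edgeR). Control 1 lay just above overexpression 2, and control 2 rests on 1 identifier, so the order is not settled. Groups did not overlap for 43.2% of the genes tested at the higher filter, which left out dnajc3a. Its copy dnajc3b had 10 identifiers over the controls and 8 over the overexpression libraries. Of the paralog pair anchored in the ER membrane, dnajb12a had 7 and 40 identifiers (1.41 ± 0.72, adjusted p = 0.0932, edgeR) and dnajb12b 11 and 27 (0.22 ± 0.70, adjusted p = 0.823, edgeR). The gene dnajc18 had 8 and 42 (1.26 ± 0.69, adjusted p = 0.125, edgeR), while dnajc10, an ER reductase, with 3 and 10, and dnajb14, with 3 and 8, were too low to be tested there. Beside these ER members, 11 of 16 tested ER chaperone and unfolded protein response genes fell and 0 rose, among them ddit3 (-1.35 ± 0.17), xbp1 (-1.57 ± 0.23), herpud1 (-2.17 ± 0.36) and atf6 (-1.79 ± 0.34; adjusted p of all 4 under 0.05, edgeR). With library totals alone 6 of the 16 fell, and with libraries scaled on contractile genes 16 of 16; over all genes 29.3% fell in the main comparison, 480 of 2498 with library totals alone and 1377 of 2498 on contractile genes. Whether the ER members differ from those genes was not tested.

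The cysteine string proteins, lipid-anchored co-chaperones of vesicle release, moved both ways. The gene dnajc5ab was at 90.9, 28.5, 131 and 195 CPM in controls and at 53.6, 61.0, 51.9 and 76.5 CPM with overexpression. Controls 1, 3 and 4 lay above all overexpression libraries, and control 2, with 1 identifier, below them. Without control 2 the groups did not overlap for 60.2% of all genes tested. It fell by 1.06 ± 0.30 on the log2 scale (SE, adjusted p = 0.0034, edgeR), and without control 4 by 0.70, which did not pass (adjusted p = 0.0798, edgeR; 2.4e-05 to 0.0841 over its 17 alternatives). It was lower in the same group as the markers of endothelial cells, fibroblasts, epicardium and leukocytes, whose part was not tested. The gene dnajc5ga was at 16.0, 0, 10.1 and 20.8 CPM in controls and at 49.1, 48.4, 37.4 and 35.8 CPM with overexpression. Its groups did not overlap, as in 43.2% of all genes tested, and it rose (1.46 ± 0.45 SE, adjusted p = 0.0063, edgeR). It reached the filter in 0 controls, so it could be tested only because it was high with overexpression. The 0 counts of control 2 allow up to 85.5 CPM, so the order against that control is not settled.

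The pair also stood in different proportion in the groups, a difference that was not tested, and control 2 holds too few identifiers to show a balance. The identifiers of dnajc5ab and dnajc5ga were 34 and 6, 1 and 0, 26 and 2, and 56 and 6 in controls. They were 24 and 22, 39 and 31, 18 and 13, and 49 and 23 with overexpression. The paralogs dnajc5aa, with 14 identifiers over the controls and 42 over the overexpression libraries (0.51 ± 0.59 SE, adjusted p = 0.509, edgeR), and dnajc5gb, with 14 and 14 (-0.98 ± 0.73, adjusted p = 0.273, edgeR), did not pass at the minimum count of 3. Reads shared between these copies could shift counts from any of them to another.

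Of the remaining members, those of nuclear and ribosomal tasks were low. The splicing-associated gene dnajc8 was at 32.0, 28.5, 20.1 and 27.7 CPM in controls and at 35.7, 46.9, 37.4 and 28.0 CPM with overexpression, overlapping ranges that did not pass (log2 fold change 0.42 ± 0.40 SE, adjusted p = 0.371, edgeR). The gene dnajc9, which in humans chaperones histones H3 and H4, had 9 and 19 identifiers over the controls and the overexpression libraries (0.11 ± 0.77, adjusted p = 0.920 at the minimum count of 3, edgeR). The ribosome-associated gene dnajc2 had 8 and 9. The gene dnajc21, which in humans serves the maturation of the large ribosomal subunit, had 0, 0, 1 and 0 identifiers in controls and 3, 5, 4 and 11 with overexpression. It was tested only without a filter, where it did not pass (3.10 ± 1.32, adjusted p = 0.0553, edgeR).

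Other members rose at the lower filter. The class B gene dnajb4, of a cytosolic relative of DNAJB1 found in muscle, had 2, 0, 4 and 1 identifiers in controls and 10, 17, 12 and 19 with overexpression (1.95 ± 0.65 SE, adjusted p = 0.0086, edgeR). The gene dnajc12, which in humans guards the folding of the aromatic amino acid hydroxylases, had 3, 0, 1 and 2 and then 8, 14, 12 and 11 (1.88 ± 0.70, adjusted p = 0.0205, edgeR). The gene dnajc4 had 3, 0, 2 and 2 and then 15, 14, 8 and 17 (1.88 ± 0.65, adjusted p = 0.0115, edgeR). In dnajc4 and dnajc12 no control reached the lower filter, and in dnajb4 a single control did. These genes could be tested only because they were high with overexpression. The gene dnaja2b also passed there (0.99 ± 0.41, adjusted p = 0.0413, edgeR). Its value shifted up as did that of each member tested at both filters, so the pass may rest partly on the scaling. Of the members with few counts, dnajc24 had 2 identifiers over the controls and 9 over the overexpression libraries, dnajc25 had 9 and 10, dnajc17 had 2 and 6, and dnajc16, dnajc22 and dnajc27 had at most 3 over all libraries.

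The authors' deposited table compares controls 1, 3 and 4 with overexpression libraries 2, 3 and 4 and holds 30 of the 42 members among its 7998 genes. It marks 11 as up and 3, dnajb1b, dnajb6a and dnaja1, as down. Of all its genes, 16% are marked up and 15% down in the authors' deposited table. Of the 11, 9 have an FDR under 0.05 in the authors' deposited table, and dnajb12a (0.0896) and dnajc11a (0.108) do not. In the authors' deposited table the log2 fold changes of dnajb1b, dnajb6a and dnaja1 are -1.92, -1.42 and -1.40, and that of dnajc5ab is -0.80 with an adjusted p of 0.0556. In the authors' deposited table dnajb4 is at 2.11 (adjusted p = 0.0051), dnajc15 at 1.68 (adjusted p = 0.0095) and dnajc21 at 3.33 (adjusted p = 0.0328).

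Scaling moved all genes together. With library totals alone the median log2 fold change of all genes moved by 0.38, and with libraries scaled on contractile genes of cardiomyocytes by -1.03. A change of scaling shifts every gene by about the same amount. A value relative to that median is therefore nearly fixed for any gene and does not test whether a call is robust. On that measure dnajb1b was between -2.06 and -1.95 over the 5 scalings, and dnaja1 between -1.29 and -1.25. The gene dnajb2 was between 1.26 and 1.33 and dnajc19 between 1.42 and 1.46. The members that did not pass were as nearly fixed, dnaja2b between 0.79 and 0.85, dnajc1 between 0.58 and 0.63 and dnajc8 between 0.40 and 0.46. The called direction of dnajb1b held under each scaling. With library totals alone dnaja1 (-0.87), dnajb6a (-0.72) and dnajc5ab (-0.65) no longer passed, and dnaja2b (1.17) and dnajc1 (0.99) passed. With scaling on contractile genes dnajb2 (0.26), dnajc5ga (0.43) and dnajc19 (0.40) no longer passed, and dnaja2b, dnajc1 and dnajc8 turned negative, with the median of all genes at -1.03.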

How the data were processed

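RNA sequencing libraries of 4 control and 4 Hmga1a overexpression samples were grouped by their titles. The authors deposited estimated counts per gene, which are unique molecular identifiers corrected for repeated use: with 4096 possible identifiers, 100% of the 62181 non-zero values turn back into whole identifiers (tolerance 0.01). No DnaJ gene used more than 436. The submitters' processing notes list danRer11 as genome build and edgeR as a tool. Aligner, annotation and use of strand: not given in the sources used here. In a further file, the authors' deposited comparison gives log2 fold changes and p-values with FDR from edgeR, per the file headers; its count columns equal 6 of the libraries (tolerance 1e-06).

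Of 21301 entries, 67 spike-in rows and 63 rows with no gene name (at most 0.0355% of counts) were left out. Rounded counts went into edgeR 4.0.16 (R 4.3.3) with filterByExpr (minimum count 10), TMM, robust quasi-likelihood test without covariate, Benjamini-Hochberg adjustment over all genes tested. SE came from the unshrunken coefficient and its F statistic. The test was tried on simulated counts. DESeq2 1.42.0, other scalings and filters, a replicate block and left-out libraries were alternatives. All 42 symbols are in the reference gene table, whose build differs, so no positions are given. Every tested member is named, as is each other member with at least 10 identifiers; those with fewer were named afterwards. Compartments were assigned from general knowledge with values in view. Of each chaperone list, up to 4 genes with the smallest p are named. The members, lists and alternatives were chosen with earlier results of these data known. Library identity was checked: no 2 libraries held the same values.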

Additional observations from a re-analysis of the deposited data

Results flagged for a closer look

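In 5 of 68 groups of 4 libraries examined, a single library stood apart from the other 3 by the Dixon test at 95%, which chance gives in about 1 of 20 groups; all 5 are overexpression groups. The level of dnajb6a was 69.3 CPM in overexpression 1 against 23.4 to 28.8 CPM in the others. That of dnaja2b was 37.4 CPM in overexpression 3 against 54.7 to 57.7 CPM. Among the heat-shock genes, hspa4a was at 268 CPM in overexpression 3 against 299 to 303 CPM, cct4 at 220.2 CPM in overexpression 2 against 295 to 309 CPM, and ahsa1b at 101 CPM in overexpression 3 against 56.1 to 62.6 CPM.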

How the results depend on the processing

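Beside 3 members higher and 4 lower, the counts were 5 and 1 with library totals alone, 0 and 4 with scaling on contractile genes, 6 and 2 of 35 with no filter, 9 and 4 of 22 with a minimum count of 3, and 1 and 3 of 5 with a minimum count of 20. Leaving out single libraries gave 2 to 6 higher and 3 to 4 lower. There were 5 higher without control 2, 5 without control 3 and 6 without control 4, where 13 members were tested. With a library left out the filter asks for 3 libraries, so members enter that the main fit did not test. Without control 2 these were dnajb4 and dnajc15, which rose, and dnajc11a, which did not pass. Each was low in all controls and entered through the overexpression libraries, so the added calls do not test the main ones. Beside 15 heat-shock genes higher and 10 lower, the counts were 20 and 6 with library totals alone, 2 and 18 with scaling on contractile genes and 15 and 6 with no filter; leaving out libraries gave 13 to 16 and 8 to 10. Over all genes, 757 rose and 731 fell. Of 13408 genes tested with no filter 921 rose and 1032 fell. The counts were 976 and 480 of 2498 with library totals alone and 128 and 1377 of 2498 with scaling on contractile genes. With a minimum count of 20 they were 464 and 517 of 1449. Without single libraries 629 to 862 rose and 669 to 853 fell, of 2667 to 2807 genes tested. Among these were 862 and 853 of 2807 without control 2, 731 and 713 of 2700 without control 3, and 739 and 694 of 2713 without control 4. With scaling on contractile genes the log2 fold changes of dnaja2b (-0.22), dnajc8 (-0.62) and dnajc1 (-0.41) reversed, in a scaling that put the median of all genes at -1.03; relative to it they stood at 0.81, 0.41 and 0.61. The fall of dnajb1b passed in all 17 alternatives, at -3.05 to -1.64.

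Same-numbered libraries did not deviate together (correlations of -0.04 to 0.02 over 4 pairs), and no library correlated best with its own number. The numbers were therefore not used as pairs in the main fit. Deviations this noisy, with control 2 so shallow, cannot settle whether same-numbered libraries were handled together. With the number as a replicate block 2 members were higher and 3 lower, and dnaja1 (-1.04, adjusted p = 0.0514) and dnajb2 (1.07, adjusted p = 0.0651) did not pass. In the same fit 13 heat-shock genes were higher and 8 lower, and 694 and 655 of all genes. The cause of these differences was not tested. Other filters and left-out libraries do change which genes are tested and from which genes the TMM scaling is computed. Depth limits the family: control 2 held 18 DnaJ identifiers in all.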
